A study of Mus musculus with 3 samples.

Results

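Complement is a cascade of plasma and membrane proteins, and its genes were read here in 3 sorted populations of mouse bone cells. The list held 36 genes for components, regulators and receptors, chosen by name and not by their values. Of these, 32 had at least 1 probe set annotated to that gene alone, with 55 probe sets between them, out of 18193 genes measured in all. C3, C4b, Cfd and C1rl had no such probe set and are not analysed here under their own names.

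The cells came from C57BL/6 mice, were released with collagenase from femur and tibia fragments and are labelled endosteal. All 3 populations were depleted of cells carrying CD45, CD31 or Ter119, the surface proteins of blood, endothelial and erythroid cells. They were then sorted as PDGFRa(+) Sca-1(+), PDGFRa(+) Sca-1(-) and PDGFRa(-) Sca-1(-), by a platelet-derived growth factor receptor of mesenchymal cells and a surface protein used to enrich progenitors. Each population had 1 array, so no value below has a replicate check or a p-value, and neither the age of the mice nor how many were pooled is stated in the sources used here. How precise each ratio is depends on this small number of arrays.

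The classical pathway starts when C1q binds a target and activates the proteases C1r and C1s, which cleave C4 and C2. The lectin pathway reaches the same step through mannose-binding lectins, ficolins and collectins with the proteases of the MASP family, and the alternative pathway amplifies both through C3, factor B and factor D. All lead to cleavage of C5 and a pore of C5b to C9, and host cells are shielded by soluble and membrane-bound regulators. The liver makes most plasma complement, macrophages make most C1q, and fibroblasts and other mesenchymal cells are known to make C1r, C1s, factor B and C1 inhibitor.

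Values are MAS5 signals on a linear scale. A signal under 93.8, the mean of the array medians, was treated as too low to read and is called under the floor. A gene with several probe sets takes its brightest one, a difference is counted from 2-fold, and a ratio against a signal under the floor is only a bound, written as "at least". The signals of different genes depend on their probes and are not compared with each other. The SD of log2 ratios between probe sets of the same gene was 0.60 for PDGFRa(+) Sca-1(+) over PDGFRa(+) Sca-1(-) cells, 0.37 for PDGFRa(+) Sca-1(-) over PDGFRa(-) Sca-1(-) cells and 0.50 for PDGFRa(+) Sca-1(+) over PDGFRa(-) Sca-1(-) cells, over at least 4300 genes each. It measures scatter between probes, not between animals.

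The gate could be checked in part. The Pdgfra signal was 12928 in PDGFRa(+) Sca-1(+) cells, 2436 in PDGFRa(+) Sca-1(-) cells and 590 in PDGFRa(-) Sca-1(-) cells, so it followed the labels but also differed 5.31-fold between the PDGFRa(+) populations. Ptprc (CD45) reached at most 74.6 and Pecam1 (CD31) at most 10.8, under the floor throughout. No value is given for the Sca-1 gene itself, which is not analysed here. Of the defining osteoblast markers, Sp7 had signals of 106, 1488 and 1204 and Alpl of 359, 15896 and 5155, in the same order of populations. The cartilage gene Acan had 3339, 26430 and 26789 in that order, so a label of endosteal cells does not describe bone-lining cells alone.

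Of the 32 genes, 17 reached the floor on at least 1 array and 15 stayed under it on all 3. On each array 14 of the 32, or 43.8%, reached the floor, against 59.6% of all genes in PDGFRa(+) Sca-1(+) cells, 60.7% in PDGFRa(+) Sca-1(-) cells and 60.6% in PDGFRa(-) Sca-1(-) cells. Among the 17, a group of 7 was at least 2-fold higher in PDGFRa(+) Sca-1(+) cells than in both other populations: C1ra, C1s1, C2, Cfb, Masp1, Serping1 and Cd55. That pattern held for 10.6% of the 12211 genes that reached the floor somewhere. Of the others, 9 of the 17 were nowhere 2-fold apart once signals were raised to the floor, against 64.8% of those genes. None of the 17 was at least 2-fold higher than both others in PDGFRa(+) Sca-1(-) or in PDGFRa(-) Sca-1(-) cells. These patterns held for 2.46% and 3.19% of the 12211 genes, shares too small for 17 genes to show a lack. With a floor at the 33rd percentile, Hc and Mbl1 were more than 2-fold higher in PDGFRa(-) Sca-1(-) cells than in both others. The higher group held 5 genes of early proteases, C1 inhibitor and the membrane regulator Cd55. The protease gene Masp2 was under the floor and Cfp, of the alternative pathway, was not higher. Most genes for recognition molecules and for the pore were among the 15 under the floor, so their order could not be read.

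**Figure D1:**
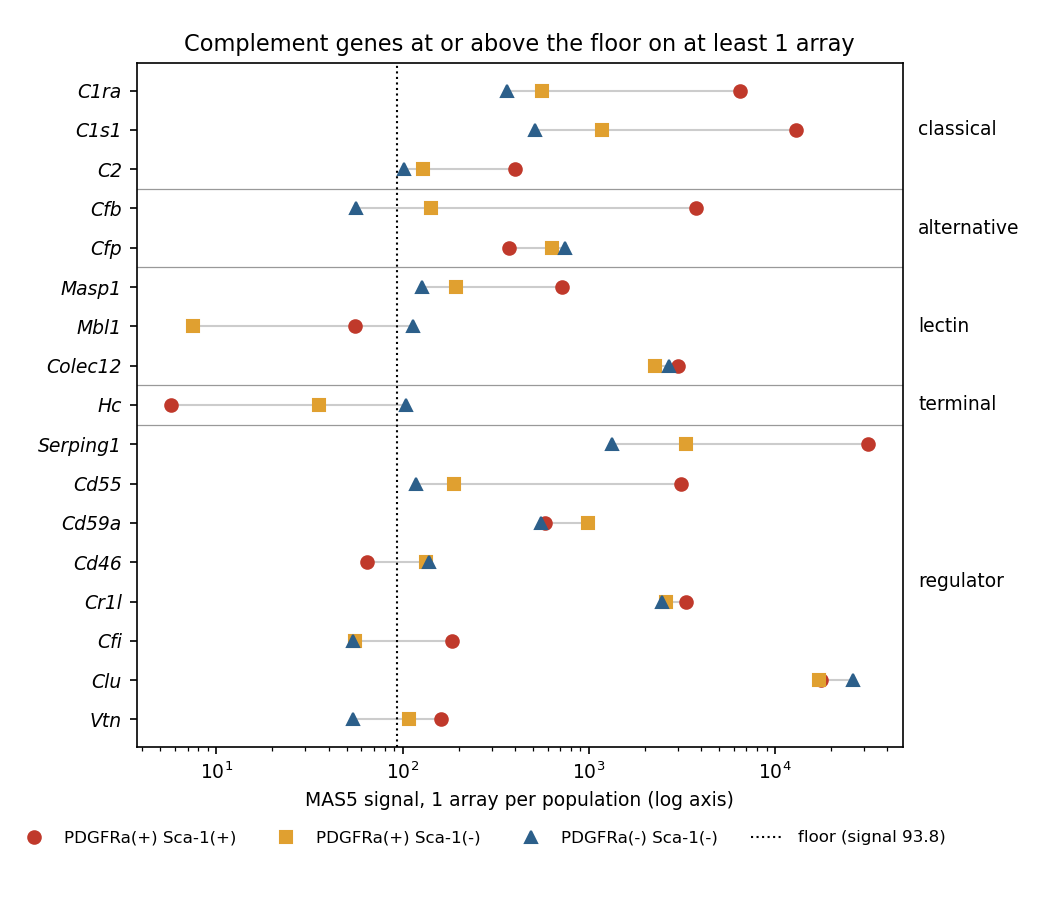
MAS5 signal (log axis) of the 17 complement genes that reached the floor on at least 1 array, by role, with 1 point per population from its single array and the floor of 93.8 as a dotted line. For C1ra, C1s1, C2, Cfb, Masp1, Serping1 and Cd55 the PDGFRa(+) Sca-1(+) point lies far to the right, whereas Colec12, Cr1l and Clu keep their points close together.

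In the classical pathway, C1ra encodes the protease C1r, which is the first to be activated within C1. Its signal was 6479 in PDGFRa(+) Sca-1(+) cells, 559 in PDGFRa(+) Sca-1(-) cells and 361 in PDGFRa(-) Sca-1(-) cells. It was 11.6-fold higher in PDGFRa(+) Sca-1(+) than in PDGFRa(+) Sca-1(-) cells and 17.9-fold higher than in PDGFRa(-) Sca-1(-) cells, while the Sca-1(-) populations differed 1.55-fold.

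C1s1 encodes C1s, the protease that C1r activates and that cleaves C4 and C2. Its signal was 12868 in PDGFRa(+) Sca-1(+) cells, 1176 in PDGFRa(+) Sca-1(-) cells and 515 in PDGFRa(-) Sca-1(-) cells, in the same order of populations as for C1ra. The ratios of PDGFRa(+) Sca-1(+) cells were 10.9-fold over PDGFRa(+) Sca-1(-) cells and 25.0-fold over PDGFRa(-) Sca-1(-) cells. C1s1 was also 2.29-fold higher in PDGFRa(+) Sca-1(-) than in PDGFRa(-) Sca-1(-) cells. Its only probe set is of the array maker's class for several transcripts, so a related transcript cannot be told apart from it.

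C2 encodes the protease that joins C4b in the C3-cleaving enzyme of the classical and lectin pathways. Its brightest probe set gave 400 in PDGFRa(+) Sca-1(+) cells, 128 in PDGFRa(+) Sca-1(-) cells and 101 in PDGFRa(-) Sca-1(-) cells, the last close to the floor. The ratio of PDGFRa(+) Sca-1(+) over PDGFRa(+) Sca-1(-) cells was 3.12-fold by this probe set. All 3 probe sets placed C2 higher in PDGFRa(+) Sca-1(+) cells, and the largest of their ratios was at least 7.48-fold. When the floor was set at the 67th percentile, the Sca-1(-) signals of C2 fell under it and the log2 ratio was bounded at 0.64, short of 2-fold.

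The recognition unit of the pathway behaved otherwise. C1qa, C1qb and C1qc encode the chains of C1q, and all of their 5 probe sets stayed under the floor in every population. C1qb gave 25.3 in PDGFRa(+) Sca-1(+) cells, 33.2 in PDGFRa(+) Sca-1(-) cells and 34.9 in PDGFRa(-) Sca-1(-) cells, and C1qc gave 5.23, 39.3 and 13.8 in the same order. Transcripts for C1r and C1s were therefore read without readable transcripts for C1q in the same cells.

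Macrophage markers were read beside C1q. Of 17 such genes, 5 reached the floor in PDGFRa(+) Sca-1(+) cells, 7 in PDGFRa(+) Sca-1(-) cells and 7 in PDGFRa(-) Sca-1(-) cells, with summed signals of 1698, 3609 and 2403. Of the defining markers, Csf1r gave 159, 193 and 113 and Cd68 gave 241, 267 and 288 in the same order, and Adgre1 was at 86.7, 106 and 118. Cd14 gave 370, 1972 and 1017, lowest in PDGFRa(+) Sca-1(+) cells. Lyz2, which neutrophils express too, gave 356, 153 and 135, in the order of the 7 higher complement genes and 2.32-fold higher in PDGFRa(+) Sca-1(+) than in PDGFRa(+) Sca-1(-) cells. The part of macrophage RNA in the complement values was not tested.

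C4 could be read only through a probe set annotated to both C4a and C4b, near-identical genes, and was left out of all counts. This shared probe set gave 21057 in PDGFRa(+) Sca-1(+) cells, 2146 in PDGFRa(+) Sca-1(-) cells and 8769 in PDGFRa(-) Sca-1(-) cells. It was 9.81-fold higher in PDGFRa(+) Sca-1(+) than in PDGFRa(+) Sca-1(-) cells, as for the classical proteases. Between the Sca-1(-) populations it went the other way from C1s1, 4.09-fold lower in the PDGFRa(+) cells. A probe set shared by C1rb and C1ra gave 6793 in PDGFRa(+) Sca-1(+) cells, 479 in PDGFRa(+) Sca-1(-) cells and 207 in PDGFRa(-) Sca-1(-) cells, the order of the C1ra probe set.

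In the alternative pathway, Cfb encodes factor B, the protease of the amplifying C3 convertase. Its signal was 3746 in PDGFRa(+) Sca-1(+) cells, 142 in PDGFRa(+) Sca-1(-) cells and 56.4 in PDGFRa(-) Sca-1(-) cells, the last under the floor. It was 26.3-fold higher in PDGFRa(+) Sca-1(+) than in PDGFRa(+) Sca-1(-) cells, the largest ratio by brightest probe sets among the complement genes in that comparison, and at least 39.95-fold higher than in PDGFRa(-) Sca-1(-) cells. The ratio of PDGFRa(+) Sca-1(-) over PDGFRa(-) Sca-1(-) cells was at least 1.52-fold. With a floor at the 33rd percentile both signals were above it and this ratio was 2.53-fold.

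Cfp encodes properdin, which stabilises that convertase and is known mainly as a product of leukocytes. It ran against the group, with 371 in PDGFRa(+) Sca-1(+) cells, 634 in PDGFRa(+) Sca-1(-) cells and 744 in PDGFRa(-) Sca-1(-) cells. The ratio of PDGFRa(+) Sca-1(+) over PDGFRa(-) Sca-1(-) cells lay at the threshold, 2.004-fold lower. With the mean over both probe sets the log2 ratio was -0.50, because the other probe set touched the floor only in PDGFRa(-) Sca-1(-) cells, at 93.9.

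Neutrophil markers, read beside Cfp, showed another order. All 10 reached the floor in PDGFRa(+) Sca-1(+) cells and all 10 in PDGFRa(+) Sca-1(-) cells, but 2 in PDGFRa(-) Sca-1(-) cells, with summed signals of 3439, 3448 and 683. The defining marker Mpo gave 659, 716 and 45.2, whereas Cfp was highest in PDGFRa(-) Sca-1(-) cells. Lcn2 gave 537, 103 and 45.9, and alone among the 10 was past 2-fold between the PDGFRa(+) populations, at 5.22-fold. The part of neutrophil RNA in the complement values was not tested.

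**Figure D2:**
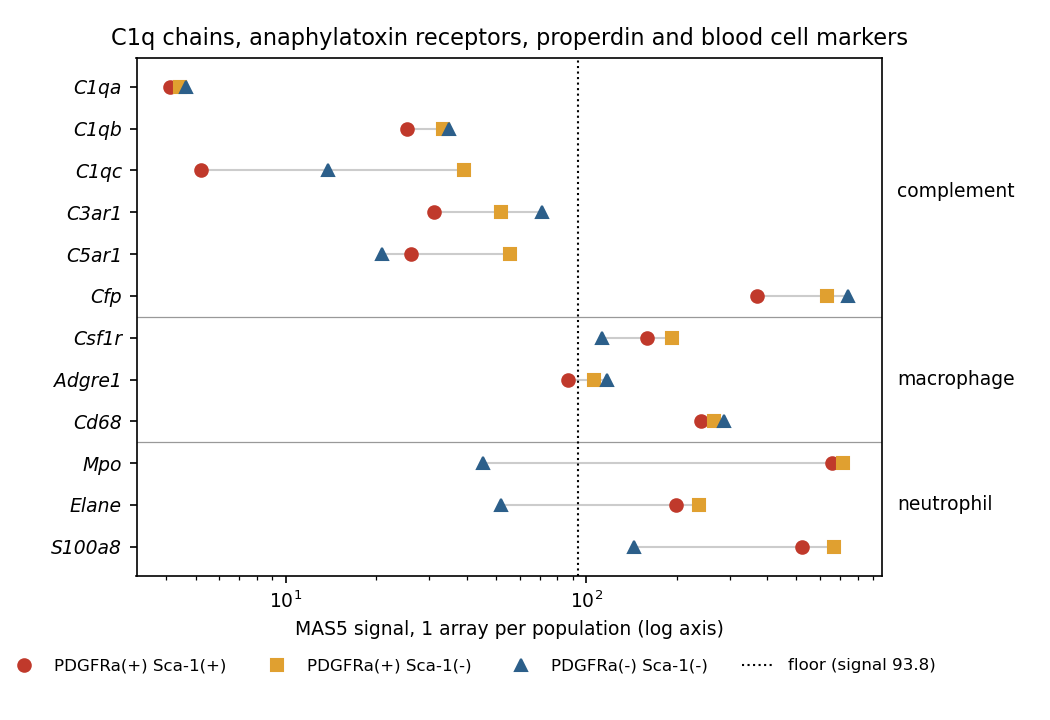
MAS5 signal (log axis) of the C1q chains, the anaphylatoxin receptors and properdin above the defining markers of macrophages and neutrophils, 1 point per population. C1qa, C1qb, C1qc, C3ar1 and C5ar1 lie left of the floor of 93.8 in every population, and the Mpo, Elane and S100a8 points separate both PDGFRa(+) populations from PDGFRa(-) Sca-1(-) cells while those of Cfp do not.

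In the lectin pathway, Masp1 encodes a serine protease that acts at the start of lectin activation and, by alternative splicing, related products. Its brightest probe set gave 717 in PDGFRa(+) Sca-1(+) cells, 193 in PDGFRa(+) Sca-1(-) cells and 127 in PDGFRa(-) Sca-1(-) cells. It was 3.72-fold higher in PDGFRa(+) Sca-1(+) than in PDGFRa(+) Sca-1(-) cells and 5.66-fold higher than in PDGFRa(-) Sca-1(-) cells. Of 5 Masp1 probe sets, 3 reached the floor, all at least 2-fold higher in PDGFRa(+) Sca-1(+) cells, with ratios over PDGFRa(+) Sca-1(-) cells between at least 2.16-fold and at least 7.79-fold. These 3 are all of the array maker's classes _s_at or _x_at, so a related transcript cannot be told apart from Masp1. The other 2, of neither class, stayed under the floor in every population, at no more than 79.5.

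Colec12, a membrane collectin and scavenger receptor of vascular and stromal cells, was readable everywhere but not part of the group. Its signal was 2989 in PDGFRa(+) Sca-1(+) cells, 2263 in PDGFRa(+) Sca-1(-) cells and 2699 in PDGFRa(-) Sca-1(-) cells, within 1.32-fold. Of the soluble recognition genes on the list, Mbl1 passed the floor on 1 array. This gene for a mannose-binding lectin gave 55.3 in PDGFRa(+) Sca-1(+) cells, 7.45 in PDGFRa(+) Sca-1(-) cells and 113 in PDGFRa(-) Sca-1(-) cells. Mbl2, the ficolin gene Fcna, Masp2 and the collectin gene Colec11 stayed under the floor on all arrays. Colec11 came nearest to it, with 85.6 in PDGFRa(+) Sca-1(+) cells, 83.3 in PDGFRa(+) Sca-1(-) cells and 62.6 in PDGFRa(-) Sca-1(-) cells.

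The terminal pathway genes lay close to the floor or under it. Hc, which encodes C5, gave 5.73 in PDGFRa(+) Sca-1(+) cells, 35.7 in PDGFRa(+) Sca-1(-) cells and 104 in PDGFRa(-) Sca-1(-) cells, so it passed the floor on 1 array by a small margin. C6, C8a, C8b, C8g and C9 were under the floor throughout, with no signal above 73.5, that of C6 in PDGFRa(+) Sca-1(-) cells. The receptors for the released fragments C3a and C5a, C3ar1 and C5ar1, were also under the floor, with no signal above 71.2 over their 5 probe sets.

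Among regulators, Serping1 encodes C1 inhibitor, which inactivates C1r, C1s and the MASP proteases. Its signal was 31557 in PDGFRa(+) Sca-1(+) cells, 3332 in PDGFRa(+) Sca-1(-) cells and 1338 in PDGFRa(-) Sca-1(-) cells. It was 9.47-fold higher in PDGFRa(+) Sca-1(+) than in PDGFRa(+) Sca-1(-) cells and 23.6-fold higher than in PDGFRa(-) Sca-1(-) cells. Like C1s1 it differed between the Sca-1(-) populations too, 2.49-fold higher in the PDGFRa(+) cells. The highest signal on the PDGFRa(+) Sca-1(+) array was 42294, and saturation can compress ratios that rest on signals near that limit.

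Cd55 encodes decay-accelerating factor, a membrane protein that breaks up C3 convertases on the cell's own surface. Its brightest probe set gave 3119 in PDGFRa(+) Sca-1(+) cells, 190 in PDGFRa(+) Sca-1(-) cells and 119 in PDGFRa(-) Sca-1(-) cells. The ratio of PDGFRa(+) Sca-1(+) over PDGFRa(+) Sca-1(-) cells was 16.4-fold by this probe set and 40.8-fold by the highest of the 3. Between the Sca-1(-) populations the log2 ratios of the Cd55 probe sets lay between -0.11 and 0.68, with no common direction. A further probe set, shared by Cd55b and Cd55 and not counted, was under the floor in every population, at no more than 20.1.

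The other membrane regulators were not 2-fold higher in PDGFRa(+) Sca-1(+) cells. Cr1l, which encodes Crry, the widespread C3 convertase regulator of rodents, gave 3336 in PDGFRa(+) Sca-1(+) cells, 2605 in PDGFRa(+) Sca-1(-) cells and 2453 in PDGFRa(-) Sca-1(-) cells. Cd59a, which encodes a membrane inhibitor of the pore, gave 581, 984 and 553 in the same order. It was 1.70-fold lower in PDGFRa(+) Sca-1(+) than in PDGFRa(+) Sca-1(-) cells by its brightest probe set and 2.15-fold lower by the other. Cd46, a cofactor for the cleavage of C3b, was low, with 64.1 in PDGFRa(+) Sca-1(+) cells, 134 in PDGFRa(+) Sca-1(-) cells and 138 in PDGFRa(-) Sca-1(-) cells. With a floor at the 33rd percentile Cd46 was 2.09-fold lower in PDGFRa(+) Sca-1(+) than in PDGFRa(+) Sca-1(-) cells.

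Soluble regulators other than Serping1 were mixed. Clu encodes clusterin, a secreted chaperone that also blocks pore assembly, and its signal was 17528 in PDGFRa(+) Sca-1(+) cells, 17158 in PDGFRa(+) Sca-1(-) cells and 26101 in PDGFRa(-) Sca-1(-) cells. All 4 Clu probe sets were highest in PDGFRa(-) Sca-1(-) cells, and the PDGFRa(+) populations lay within 1.06-fold of each other by each of them. Cfi encodes factor I, the protease that inactivates C3b and C4b, and gave 185 in PDGFRa(+) Sca-1(+) cells, 55.5 in PDGFRa(+) Sca-1(-) cells and 54.3 in PDGFRa(-) Sca-1(-) cells. It was at least 1.97-fold higher in PDGFRa(+) Sca-1(+) cells than in either other population, a bound that stops just short of the threshold. With a floor at the 33rd percentile both signals were above it, and Cfi was 3.33-fold higher than in PDGFRa(+) Sca-1(-) cells.

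Vtn encodes vitronectin, an adhesive plasma protein that keeps the pore out of membranes. It gave 161 in PDGFRa(+) Sca-1(+) cells, 108 in PDGFRa(+) Sca-1(-) cells and 54.3 in PDGFRa(-) Sca-1(-) cells, the last under the floor. Vtn was 1.49-fold higher in PDGFRa(+) Sca-1(+) than in PDGFRa(+) Sca-1(-) cells and at least 1.72-fold higher than in PDGFRa(-) Sca-1(-) cells. With a floor at the 33rd percentile the latter log2 ratio became 1.57, past 2-fold. C4bp, which encodes C4b-binding protein, was under the floor throughout, with a highest signal of 10.4.

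The promoters of the higher genes are shown for C1s1, C1ra and Cd55, which were high together in PDGFRa(+) Sca-1(+) cells; for C2, Cfb, Masp1 and Serping1 none is printed. The sequences are RefSeq's for build GRCm38.p6, written 5′ to 3′ on the gene's strand, from 250 bases before to 50 bases after the annotated start, for C1s1 the first start listed. They lie at chr6:124542310-124542609 on the minus strand for C1s1, chr6:124512371-124512670 on the plus strand for C1ra and chr1:130462695-130462994 on the minus strand for Cd55. Capitals mark matches, on either strand, to the motifs named in the next paragraph.
C1s1: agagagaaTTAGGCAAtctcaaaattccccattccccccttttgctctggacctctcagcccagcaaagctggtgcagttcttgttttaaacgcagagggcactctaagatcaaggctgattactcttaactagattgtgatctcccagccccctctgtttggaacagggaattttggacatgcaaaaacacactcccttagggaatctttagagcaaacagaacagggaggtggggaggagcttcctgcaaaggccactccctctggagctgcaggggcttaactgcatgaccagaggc
C1ra: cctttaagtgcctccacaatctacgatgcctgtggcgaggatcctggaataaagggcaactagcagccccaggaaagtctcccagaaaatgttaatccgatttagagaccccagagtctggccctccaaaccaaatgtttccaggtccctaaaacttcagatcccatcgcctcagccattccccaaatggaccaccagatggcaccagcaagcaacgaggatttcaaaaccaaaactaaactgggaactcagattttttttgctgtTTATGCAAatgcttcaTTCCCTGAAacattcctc
Cd55: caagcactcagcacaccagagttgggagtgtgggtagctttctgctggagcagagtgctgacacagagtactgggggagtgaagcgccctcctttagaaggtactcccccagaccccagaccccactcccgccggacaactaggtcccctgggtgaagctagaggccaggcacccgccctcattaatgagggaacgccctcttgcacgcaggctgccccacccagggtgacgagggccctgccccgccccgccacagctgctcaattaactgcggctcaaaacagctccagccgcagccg

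Motifs of factors known to act on acute-phase genes were searched as letters, on both strands. TTGCNNAA, for C/EBP proteins, was in the C1ra and C1s1 promoters and in 10.8% of 27018 promoters of the same length. TTCNNNGAA, for STAT proteins, was in the C1ra promoter and in 8.47% of all promoters. For NF-kB, GGG and TTTCC with any 2 bases between them matched none of the 3 and was in 1.62% of all promoters, and the looser GGG and TCC with any 4 bases between them, which covers it, matched none and was in 19%. For interferon-regulated factors, a pair of GAAA with any 2 bases between them matched none of the 3 and was in 3.49%. Among the 24 complement genes with both a probe set and a promoter, TTGCNNAA was in 3, TTCNNNGAA in 5, the paired GAAA in 4, the looser NF-kB letters in 3 and the stricter in 1. GC content was 50% for C1s1, 47% for C1ra and 63.3% for Cd55.

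Several of the genes are neighbours in the RefSeq gene table of GRCm38.p6, and neighbours did not always share a pattern of signal. C1ra and C1s1 on chromosome 6 have no protein-coding gene between them, nor have Cfb and C2 on chromosome 17, and all 4 were in the higher group. On chromosome 1, Cd46 and Cr1l are adjacent while Cd55 lies more than 534 protein-coding genes away, and of these regulators Cd55 alone was in the higher group. C1qa, C1qb and C1qc are adjacent on chromosome 4 and all were under the floor, as were the adjacent C8a and C8b.

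PDGFRa(+) Sca-1(+) cells were set against PDGFRa(+) Sca-1(-) cells to ask what goes with Sca-1 among PDGFRa(+) cells. Of 15 complement genes that could be compared, 7 were at least 2-fold higher in PDGFRa(+) Sca-1(+) cells, against 14.9% of 11855 genes. None of the 15 was at least 2-fold lower, against 11.3% of all genes. The 8 not past 2-fold ran from a log2 ratio of -0.77 for Cfp to the bound of 0.98 for Cfi. Cfb, Cd55, C1ra and C1s1 were at least 10-fold higher, a size reached by 1.27% of all genes. The median log2 ratio was 0.98 over the 15 genes and 0.07 over all genes. The first of these is the bound for Cfi, so it depends on where the floor was set.

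By role, the 3 classical genes compared were all higher, with a median log2 ratio of 3.45. Of 2 alternative genes Cfb and of 2 lectin genes Masp1 were higher, as were 2 of 8 regulators, and no terminal or receptor gene could be compared. Probe sets of the same gene differed by as much as 1.85 in log2 ratio, for Masp1, but no gene had probe sets past 2-fold in opposite directions.

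**Figure D3:**
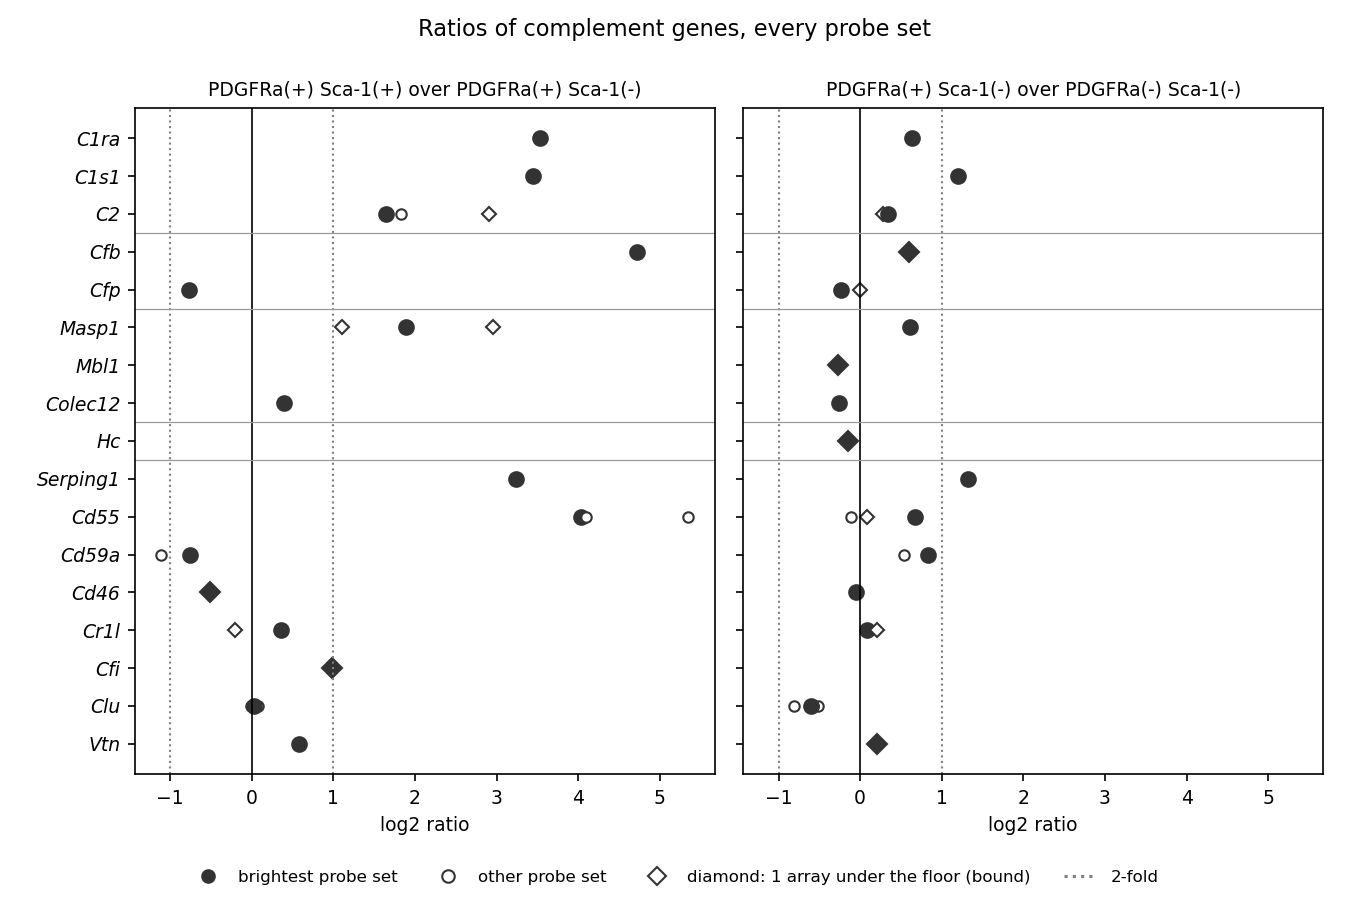
Log2 ratio of every readable probe set of the 17 genes, for PDGFRa(+) Sca-1(+) over PDGFRa(+) Sca-1(-) cells and for PDGFRa(+) Sca-1(-) over PDGFRa(-) Sca-1(-) cells, with filled symbols for the brightest probe set, open symbols for the others, diamonds for bounds and dotted lines at 2-fold. The ratios reach 4.72 for Cfb by brightest probe sets in the first panel, and do not go beyond 1.32, for Serping1, in the second.

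PDGFRa(+) Sca-1(-) cells were set against PDGFRa(-) Sca-1(-) cells to ask what goes with PDGFRa among Sca-1(-) cells. Of 16 complement genes compared, C1s1 and Serping1 were at least 2-fold higher in the PDGFRa(+) cells, against 4.82% of 11675 genes, and none was at least 2-fold lower, against 5.63%. The median log2 ratio was 0.27 over the 16 genes and -0.03 over all genes. C1ra at 0.63, Cd55 at 0.68, Masp1 at 0.61, the bound for Cfb at 0.60 and C2 at 0.34 were higher by less than 2-fold, and Clu was lowest at -0.61. By brightest probe sets and with no fold threshold, 9 of the 17 genes, or 52.9%, had the order PDGFRa(+) Sca-1(+) above PDGFRa(+) Sca-1(-) above PDGFRa(-) Sca-1(-), against 18.2% of all genes that reached the floor. They were the 7 of the higher group, whose first step was fixed by how the group was defined, with Cr1l and Vtn. For Cd55 the second step depended on the probe set. The Pdgfra signal had that order as well.

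PDGFRa(+) Sca-1(+) cells were last set against PDGFRa(-) Sca-1(-) cells, which differ in both sorting markers. Of 17 complement genes compared, the same 7 were at least 2-fold higher in PDGFRa(+) Sca-1(+) cells, against 14.5% of 11843 genes. Cfp was lower at the threshold, 1 of 17, against 12.2% of all genes. C1ra, C1s1, Cfb, Serping1 and Cd55 were at least 10-fold higher, against 1.49% of all genes. The median log2 ratio was 0.78, which is the bound for Vtn and depends on the floor, and 0.03 over all genes. The 3 comparisons share arrays, so this one adds no separate measurement to the other 2.

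**Figure D4:**
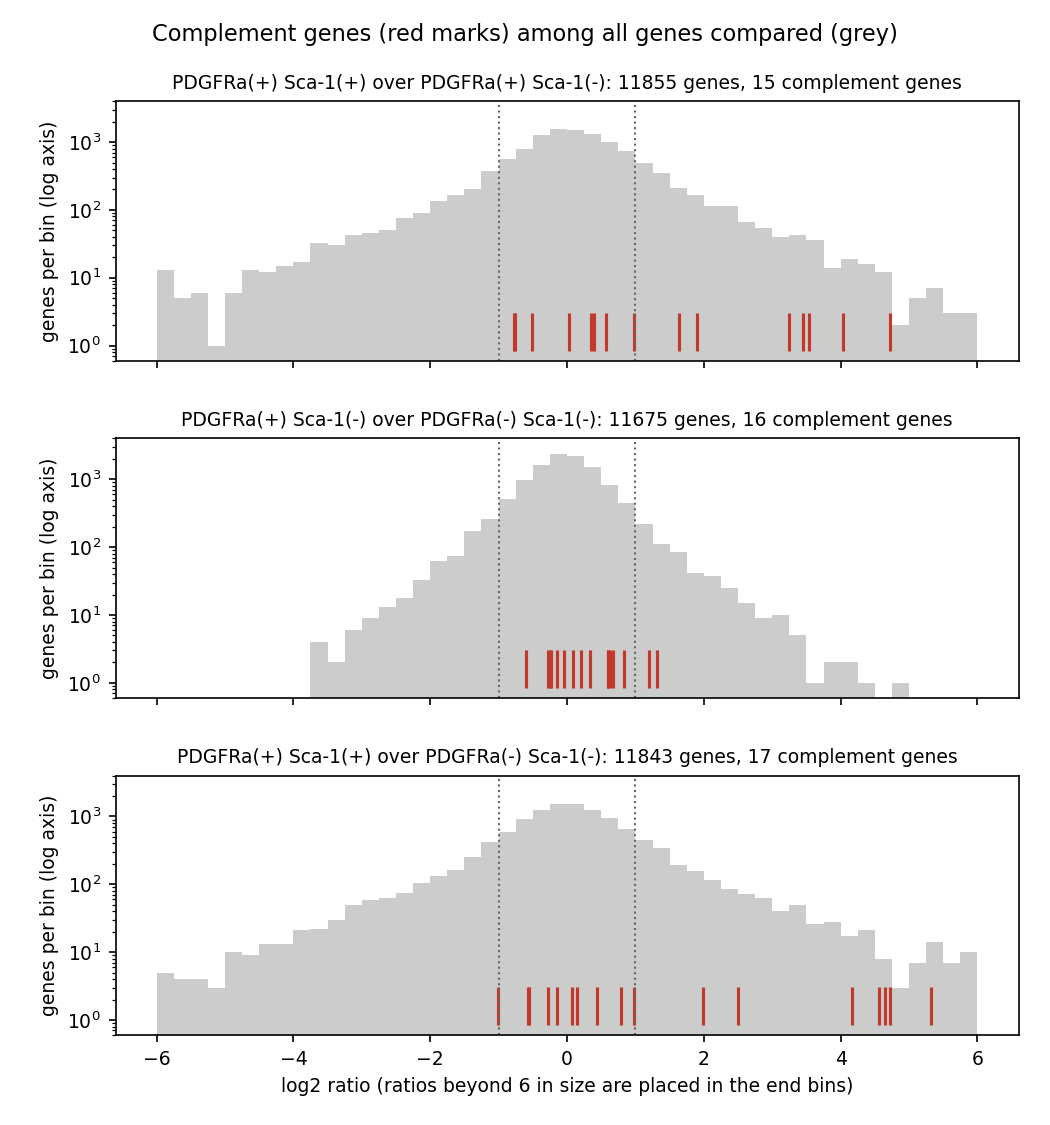
Distribution of log2 ratios over all genes compared (grey bars, number of genes per bin on a log axis) in each of the 3 comparisons, with complement genes as red marks and dotted lines at 2-fold. In both comparisons of PDGFRa(+) Sca-1(+) cells 7 marks lie past 2-fold on the right, and in the comparison of Sca-1(-) populations 2 do.

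Other genes tied to complement were read as a second list of 35, of which 25 had their own probe set and 8 reached the floor. The factor H gene and C7 had no such probe set and are not analysed here. Of the 8 genes compared between PDGFRa(+) Sca-1(+) and PDGFRa(+) Sca-1(-) cells, 4 were at least 2-fold higher and 0 lower, against 14.9% and 11.3% of all genes. This second list was chosen with earlier results of these data known, so its counts are a description only. Ptx3 encodes pentraxin 3, a soluble pattern receptor that binds C1q and factor H, and gave 2105 in PDGFRa(+) Sca-1(+) cells, 103 in PDGFRa(+) Sca-1(-) cells and 313 in PDGFRa(-) Sca-1(-) cells. It was 20.4-fold higher in PDGFRa(+) Sca-1(+) than in PDGFRa(+) Sca-1(-) cells, but its other probe set was under the floor on both arrays. Unlike the 7 genes above, Ptx3 was 3.03-fold lower in PDGFRa(+) Sca-1(-) than in PDGFRa(-) Sca-1(-) cells.

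Colec10 encodes the collectin that pairs with the product of Colec11. It gave 759 in PDGFRa(+) Sca-1(+) cells, 147 in PDGFRa(+) Sca-1(-) cells and 83.5 in PDGFRa(-) Sca-1(-) cells, 5.15-fold higher in PDGFRa(+) Sca-1(+) than in PDGFRa(+) Sca-1(-) cells, while Colec11 stayed under the floor. Pros1, whose product protein S carries C4b-binding protein in plasma, gave 4042 in PDGFRa(+) Sca-1(+) cells, 883 in PDGFRa(+) Sca-1(-) cells and 1458 in PDGFRa(-) Sca-1(-) cells. Thbd, encoding thrombomodulin, gave 6346, 1637 and 2170 in the same order. C1qbp and Calr, which encode C1q-binding proteins, were within 1.49-fold on all arrays by their brightest probe sets. The other C1qbp probe set gave 1694 in PDGFRa(+) Sca-1(+) cells, 1348 in PDGFRa(+) Sca-1(-) cells and 2905 in PDGFRa(-) Sca-1(-) cells, past 2-fold between the Sca-1(-) populations, with a log2 ratio of -1.11. The leukocyte complement receptor genes Itgam, Itgax, Itgb2 and Cr2 were under the floor, at no more than 45.5.

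Markers of other cell types differed between the populations too, some in the order of the higher group and some not. All 8 fibroblast markers reached the floor in PDGFRa(+) Sca-1(+) cells, 6 in PDGFRa(+) Sca-1(-) cells and 5 in PDGFRa(-) Sca-1(-) cells, with summed signals of 140185, 63282 and 46574. The defining marker Dpt gave 25022, 2453 and 433 in that order, as the complement genes did, and Pi16 gave 3999, 10.5 and 12.9. Cd34, Mfap5, Cd248 and Col14a1 were also highest in PDGFRa(+) Sca-1(+) cells. Dcn, with 34424, 34193 and 27788, had the order of the higher group but within 1.24-fold, and saturation can compress ratios of such high signals. Lum, with 22340, 24048 and 17657, was highest in PDGFRa(+) Sca-1(-) cells. Dcn and Lum made up most of the fibroblast sums of the Sca-1(-) populations. All 10 chondrocyte markers reached the floor in each population, with summed signals of 40467 in PDGFRa(+) Sca-1(+) cells, 228694 in PDGFRa(+) Sca-1(-) cells and 192185 in PDGFRa(-) Sca-1(-) cells. The part of these markers in the complement values was not tested. In such mixed samples fewer cells of a type and less RNA per cell cannot be told apart.

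Of 8 osteoblast and osteocyte markers, 6, 7 and 7 reached the floor in PDGFRa(+) Sca-1(+), PDGFRa(+) Sca-1(-) and PDGFRa(-) Sca-1(-) cells, with summed signals of 18967, 121247 and 43339. Of 7 adipocyte markers with a probe set, 4, 3 and 2 reached the floor in that order, with summed signals of 10686, 1830 and 1053, of which Lpl gave 9969, 1259 and 665. The defining adipocyte marker Adipoq gave 58.8, 296 and 80.0, above the floor in PDGFRa(+) Sca-1(-) cells alone, and Cidec was under it throughout, at 22.0 or less. Of 7 endothelial markers 2, 1 and 0 reached the floor, with summed signals of 1158, 298 and 175. Most of the first sum came from Tek, a receptor of endothelial cells, with 893 in PDGFRa(+) Sca-1(+) cells, 37.7 in PDGFRa(+) Sca-1(-) cells and 13.4 in PDGFRa(-) Sca-1(-) cells, at least 9.53-fold higher than in either other population. Of the defining endothelial markers Kdr gave 156, 111 and 67.5, the order of the higher complement genes, while Pecam1 and Cdh5 were under the floor throughout. Of 6 erythroid markers 2, 5 and 5 reached the floor, with summed signals of 1388, 2317 and 7535. Most of each sum came from Tfrc, with 1070, 1763 and 6616 in that order. Of the defining erythroid markers Klf1 gave 60.1, 96.8 and 193, while Alas2 was under the floor throughout, at 13.1 or less. The signal of the Actb control near the 3' end was 4.65 times that near the 5' end in PDGFRa(+) Sca-1(+) cells, 2.63 times in PDGFRa(+) Sca-1(-) cells and 2.99 times in PDGFRa(-) Sca-1(-) cells, and for Gapdh it was 4.73, 3.54 and 3.93 times. The PDGFRa(+) Sca-1(+) array thus had the strongest 3' bias, and its part in the complement values was not tested.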

How the data were processed

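RNA of 3 sorted mouse populations was labelled with biotin after a pair of amplification rounds and hybridised to 1 Affymetrix array each, per the labels' protocols. The authors deposited linear intensities per probe set, made with MAS5 per the submitters' processing notes; its version, calls and filters are not stated there. Each array was scaled to a 2% trimmed mean of 500 over 45037 probe sets, leaving out 64 controls. The floor was the mean of the array medians, 93.8, and log2 was taken of signals raised at least to that floor (Python 3.11.15, pandas 2.3.3, numpy 2.4.6). Genes were named from the platform annotation: 34945 probe sets had 1 symbol, 932 several and 9160 none; 34741 were matched by gene number to RefSeq of GRCm38.p6, and 0 symbols changed. Only the chosen probe set, by mean log2 signal, stands for a gene.

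With 1 array per population no test was run. Counts are of ratios of at least 2-fold. All 36 listed genes are accounted for, and other genes are named from lists of pathway genes and cell markers. These lists were chosen with earlier results of these data known. Alternatives covered scaling, floor, probe sets and fold.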

Additional observations from a re-analysis of the deposited data

How the results depend on the processing

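The counts and medians of the 3 comparisons were recomputed with 8 alternatives, and with 1 chosen after seeing the data. In the latter, the probe sets shared with C4a and C1rb were added as candidates for C4b and C1ra. The C4a and C4b probe set thus entered for C4b. C1ra kept its own probe set, the brighter by mean log2 signal, so its ratios did not change and were not tested by it. No alternative turned the sign of a complement gene that was at least 2-fold apart, and the 3 scaling alternatives changed no call. The floor mattered most, because many complement genes lie near it. With the floor at the 33rd percentile, the genes at least 2-fold lower numbered 1 for PDGFRa(+) Sca-1(+) over PDGFRa(+) Sca-1(-), 2 for PDGFRa(+) Sca-1(-) over PDGFRa(-) Sca-1(-) and 4 for PDGFRa(+) Sca-1(+) over PDGFRa(-) Sca-1(-) cells. The medians of the first and last became 0.38 and 0.20 as more genes entered and bounds moved. For PDGFRa(+) Sca-1(-) over PDGFRa(-) Sca-1(-) cells, the higher genes numbered 1 without _x_at and _s_at probe sets, which removes the only C1s1 probe set, and 0 at a 3-fold threshold, and the lower genes 1 with the shared probe sets. For PDGFRa(+) Sca-1(+) over PDGFRa(-) Sca-1(-) cells, the lower genes numbered 0 with the mean over probe sets and 0 at a 3-fold threshold. The other 68 recomputed counts and medians stayed within 1.5 times or within the scatter between probe sets. Among them, leaving out _x_at and _s_at probe sets removed C1s1 and Masp1 from PDGFRa(+) Sca-1(+) over PDGFRa(+) Sca-1(-) cells. It left 5 of 13 genes higher there, with a median log2 ratio of 0.57. No paired analysis was possible because each population had 1 array. The arrays' low signals limit what can be said of the 15 genes under the floor.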
